A study of Saccharomyces cerevisiae with 24 samples.

Results

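Yeast that lacked RPH1 were compared with wild type yeast while both were exposed to rapamycin. The comparison rests on 4 RNA-seq libraries of BY4741, a MATa laboratory strain of Saccharomyces cerevisiae: 2 from the rph1 deletion with rapamycin and 2 from the wild type with rapamycin. They are 4 of the 24 samples of the series, chosen by their labels alone. Another 4 RNA libraries, 2 from the untreated deletion and 2 from the untreated wild type, stand beside them for reference. The other 16 samples are chromatin immunoprecipitation (ChIP) or input libraries, from which the authors' gene lists for FLAG-tagged Rph1 in wild type cells with rapamycin and untreated were used. The labels name no rapamycin dose, no duration, no deletion allele and no number of clones. Whether replicates were separate cultures is not said, so each p-value reflects the spread among libraries and no more.

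Rph1 is a JmjC-domain histone demethylase that removes methyl groups from histone H3 and also binds DNA through zinc fingers. It was first described as a repressor of PHR1, the photolyase gene of DNA repair, and has been reported to hold down autophagy genes in well-fed cells. Rapamycin inhibits TORC1, the kinase complex through which nutrients drive growth. When TORC1 is off, yeast stops making ribosomes, turns on genes for the use of poor nitrogen sources and starts autophagy.

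RPH1 (YER169W; sacCer3, chromosome V, 523369 to 525759) had 82 and 45 reads in the 2 deletion libraries with rapamycin, against 1695 and 2107 reads in the 2 wild type libraries with rapamycin. This fits the labels. Its neighbours were not all alike. BCK2 (chromosome V, 518216 to 520771), whose product promotes the G1/S transition, had 48.4 and 52.9 CPM (read counts scaled to a common library size with TMM factors) in the deletion and 90.7 and 93.9 CPM in the wild type. It was lower in the deletion by a log2 fold change of -0.87 ± 0.13 (standard error, SE, n = 2 each, edgeR adjusted p = 0.00269). ADK2, the gene next to RPH1 on the other side, was higher by 0.78 ± 0.13 (edgeR adjusted p = 0.005). CCA1, between BCK2 and RPH1, had 0.05 ± 0.12, and RAD3, beyond ADK2, had 0.30 ± 0.11, and neither passed the test. The other JmjC genes and the histone H3 methyltransferase gene SET2 did not pass the test: GIS1, the paralogue of RPH1, had a log2 fold change of -0.21 (95% interval -0.69 to 0.27), JHD1 0.24 (0.02 to 0.45), JHD2 0.33 (-0.05 to 0.71), ECM5 -0.09 (-0.30 to 0.12) and SET2 -0.05 (-0.47 to 0.38). JHD2 was called higher without wild type replicate 2 with rapamycin (0.61, edgeR adjusted p = 0.0408).

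The 4 rapamycin libraries held between 18937478 and 20983031 counts. Across genes, which are not independent replicates, the Spearman correlation was 0.995 between the 2 deletion libraries, 0.992 between the 2 wild type libraries and 0.962 to 0.968 between genotypes. Of 6169 genes tested, 891 were higher in the deletion, which is 14.4%, and 834 were lower, which is 13.5% (edgeR quasi-likelihood test, Benjamini-Hochberg adjusted p under 0.05). Changes over 2-fold were the smaller part, with 103 genes higher and 131 lower, and the median log2 fold change of all genes was 0.00. With 1 library left out the counts fell as low as 373 higher and 274 lower (without deletion replicate 1), 508 and 387 (without deletion replicate 2), 625 and 475 (without wild type replicate 1) or 515 and 424 (without wild type replicate 2), where each replicate named is a library with rapamycin. Values are shares of a scaled library, so a change in RNA per cell would be missed, and in bulk samples fewer cells of a kind and less RNA per cell cannot be told apart.

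Genes for making ribosomes were higher in the deletion. Among ribosomal protein genes 86 of 138 were higher and 0 were lower, with a median log2 fold change of 0.58, beside 0.00 for all genes. Their share of all counts was 5.11% and 4.59% in the deletion libraries and 3.50% and 2.75% in the wild type libraries, so the deletion libraries were both above the wild type ones. RPL3, a protein of the large subunit's catalytic core, had 1566 and 1298 CPM in the deletion and 715 and 668 CPM in the wild type, 2.07-fold more in the deletion (log2 fold change 1.05 ± 0.16, edgeR adjusted p = 0.00353). RPP0, the base of the ribosomal stalk, was higher by 1.02 ± 0.17. RPS9A was higher by 1.32 ± 0.19, and ASC1, a scaffold protein on the small subunit, by 1.01 ± 0.18. The count of 86 rested on single libraries: it was 10 without deletion replicate 1 and 26 without wild type replicate 2. Both subunits took part, with 48 of 81 large subunit genes and 38 of 57 small subunit genes higher and a median of 0.58 for each.

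The genes that assemble ribosomes were called in a larger share than the ribosomal proteins. In the small subunit processome and 40S assembly list, 60 of 72 genes were higher and 0 lower, with a median of 0.78. In the 60S assembly list 70 of 84 were higher and 1 lower, with a median of 0.73. Their shares of counts were 0.997% and 1.03% (40S) and 1.42% and 1.42% (60S) in the deletion, against 0.597% and 0.585% (40S) and 0.879% and 0.813% (60S) in the wild type. These counts stayed between 43 and 65, and between 51 and 75, when any 1 of the 8 libraries was left out. ROK1, an RNA helicase of 40S assembly, had 98.9 and 87.0 CPM in the deletion and 39.6 and 37.3 CPM in the wild type. Its log2 fold change was 1.27 ± 0.11 (edgeR adjusted p = 0.000613). UTP23 and NOP14, also needed to process the small subunit's RNA, were higher by 1.17 ± 0.10 and 1.10 ± 0.11. On the 60S side ERB1, SDA1 and RRP8 were higher by 1.13 ± 0.12, 0.97 ± 0.11 and 1.03 ± 0.12. The DEAD-box helicase DBP2 showed the largest rise in this list, with 165 and 167 CPM in the deletion and 43.4 and 59.7 CPM in the wild type (1.69 ± 0.24). The 1 gene that was lower, REH1, encodes a late 60S maturation factor and was named after its values were seen. It had 156 and 157 CPM in the deletion against 259 and 245 CPM in the wild type (-0.69 ± 0.11).

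**Figure D1:**
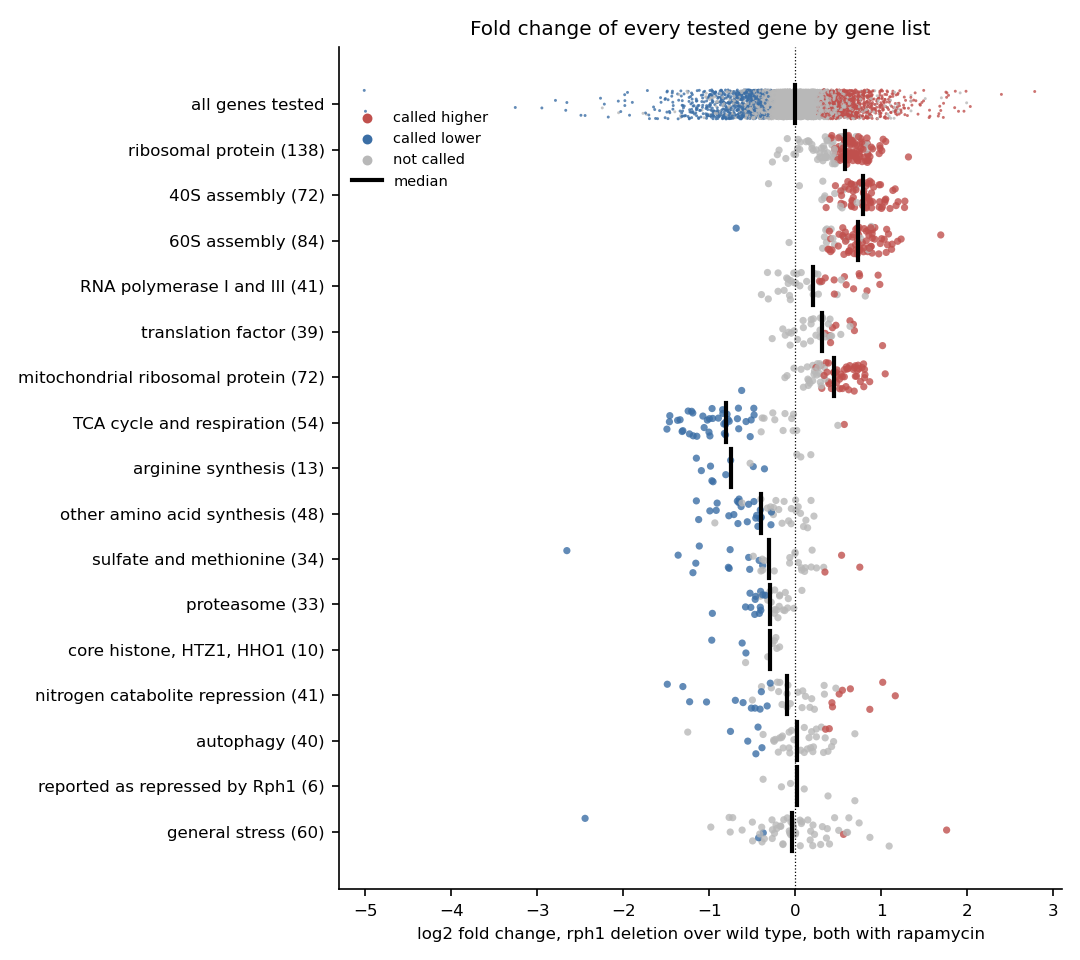
Log2 fold change of the rph1 deletion over the wild type, both with rapamycin (x axis), for every tested gene (top row) and for 16 gene lists, with the number tested in brackets. Each point is 1 gene, coloured by its call at an adjusted p under 0.05, and the black bar is the median. The assembly lists have medians of 0.78 and 0.73, and the TCA cycle and respiration list has a median of -0.81.

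Polymerases and translation factors were called in smaller shares. Of 41 genes for RNA polymerases I and III and their factors, 13 were higher (31.7%, beside 14.4% of all genes) and 0 lower, with a median of 0.21. RPA135 and RPA49, subunits of RNA polymerase I, were higher by 0.98 ± 0.12 and 0.96 ± 0.12, and RPC53 of RNA polymerase III by 0.75 ± 0.11. The count was 4, 7, 8 and 5 without deletion replicate 1, deletion replicate 2, wild type replicate 1 and wild type replicate 2, in that order. Among 39 translation factor genes 9 were higher and 0 lower (3 without deletion replicate 1, 14 without either untreated wild type library), with RPG1 and PRT1 of initiation factor eIF3 up by 1.01 ± 0.12 and 0.68 ± 0.10. The edgeR share of the 39 was 23.1% higher, beside 14.4% of all genes. DESeq2 called 22 of the 39 higher. Cytosolic aminoacyl-tRNA synthetase genes were called higher in 15.8% of cases, beside 14.4% of all genes, and lower in 5.26%, beside 13.5%. Among cytosolic aminoacyl-tRNA synthetase genes 3 of 19 were higher (1 without deletion replicate 1, 6 by DESeq2), among them GLN4 (0.78 ± 0.10), and 1 was lower, TYS1 (-0.45 ± 0.09). TYS1 lost its call without deletion replicate 1, deletion replicate 2 or wild type replicate 2 (adjusted p = 0.0689, 0.0864 and 0.0516), and GLN4 kept it.

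Regulators of these genes were called in about the share of all genes. Of 16 genes for regulators of ribosomal gene transcription, 2 were higher (12.5%, beside 14.4% of all genes), and both encode repressors: TOD6 had 78.9 and 79.8 CPM in the deletion and 51.5 and 48.8 CPM in the wild type (0.66 ± 0.19), and STB3 had 93.4 and 96.7 CPM in the deletion and 74.4 and 78.7 CPM in the wild type (0.31 ± 0.09). Neither call held when any 1 of the 4 rapamycin libraries was left out (adjusted p from 0.0847 to 0.141 over both genes), and STB3 also lost it without either untreated deletion library (0.0614 and 0.0603). Among small nucleolar and spliceosomal RNAs 13 of 62 were higher (21.0%, beside 14.4% of all genes). In the other direction 6 were lower (9.68%, beside 13.5% of all genes). SNR37, a guide for pseudouridylation of ribosomal RNA, had 24.0 and 14.5 CPM in the deletion and 4.49 and 4.91 CPM in the wild type (2.03 ± 0.25). SNR30, needed for the small subunit's RNA, and LSR1, the U2 RNA of the spliceosome, were both higher by 1.72, with SEs of 0.29 and 0.23. The 13 became 7 without deletion replicate 1 and 8 without either wild type library, and the 6 became 1 without deletion replicate 1. These RNAs had few reads, with a median level of 2.18 CPM in the deletion and 2.28 CPM in the wild type.

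**Figure D2:**
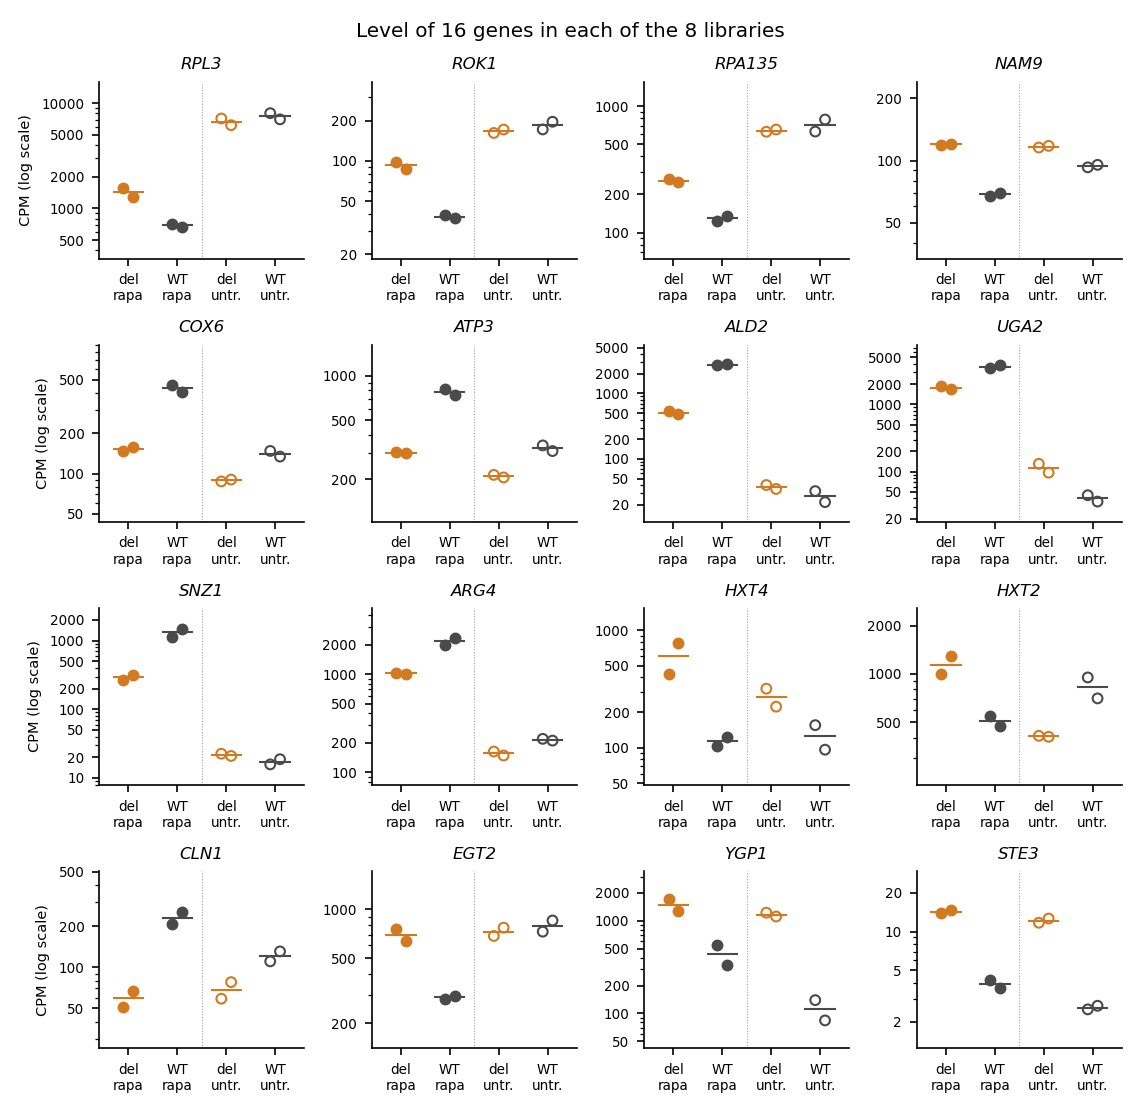
CPM (y axis, log scale) of 16 genes in each library. Filled points are rapamycin libraries, open points untreated ones, orange the deletion, grey the wild type, and each line is the mean of 2 libraries. RPL3 had 1566 and 1298 CPM in the deletion with rapamycin, above both wild type libraries with rapamycin, and COX6 had 148 and 159 CPM, below both.

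Nuclear genes for mitochondrial functions went in opposite directions. Those for the TCA cycle, respiratory chain and ATP synthase were lower: 41 of 54 were lower and 1 higher, with a median log2 fold change of -0.81. Their share of counts was 1.92% and 1.96% in the deletion and 2.82% and 2.76% in the wild type. The count of 41 stayed between 33 and 42 when any 1 of the 8 libraries was left out. Mitochondrial ribosomal protein genes, by contrast, were higher in 47 of 72 cases and lower in 1, with a median of 0.45.

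COX6, a subunit of cytochrome c oxidase, had 148 and 159 CPM in the deletion and 456 and 408 CPM in the wild type, a difference of 2.81-fold (log2 fold change -1.49 ± 0.10, edgeR adjusted p = 0.000584). ATP3, the gamma subunit of the ATP synthase rotor, had 304 and 300.4 CPM in the deletion against 814 and 746 CPM in the wild type (-1.37 ± 0.10). ATP17 and COX5A, of ATP synthase and cytochrome c oxidase, were lower by log2 fold changes of -1.46 ± 0.11 and -1.21 ± 0.10. Split by complex, with lists written after the values were seen, all 15 genes of ATP synthase and its inhibitor were lower, with a median of -1.19. Of the cytochrome bc1 complex and cytochrome c genes 10 of 11 were lower, of cytochrome c oxidase 8 of 10, and of the TCA cycle with succinate dehydrogenase 8 of 15. The TCA count was 4, 3 and 5 without deletion replicate 1, deletion replicate 2 and wild type replicate 1, while the other complexes stayed within 1.5 times. The exception, IDH1 of isocitrate dehydrogenase, had 977 and 1002 CPM in the deletion and 634 and 700.1 CPM in the wild type (0.57 ± 0.17, edgeR adjusted p = 0.0392), and lost its call when any 1 of the 4 rapamycin libraries was left out (adjusted p from 0.0964 to 0.153). Mitochondrially encoded genes had 0 reads in all libraries, as had HYP2, the gene of the translation factor eIF5A, so these zeros say nothing about expression.

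Among the mitochondrial ribosomal protein genes NAM9 had 119 and 120.3 CPM in the deletion and 67.3 and 70.0 CPM in the wild type (0.80 ± 0.08, edgeR adjusted p = 0.000887). MRPL7 was higher by 0.74 ± 0.08. The 1 gene that was lower, RSM22 (-0.62 ± 0.14), was named after its values were seen and lost its call without deletion replicate 1 (adjusted p = 0.114) or wild type replicate 2 (0.0877). The count of 47 was 30 without either deletion library and 31 without wild type replicate 2.

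**Figure D3:**
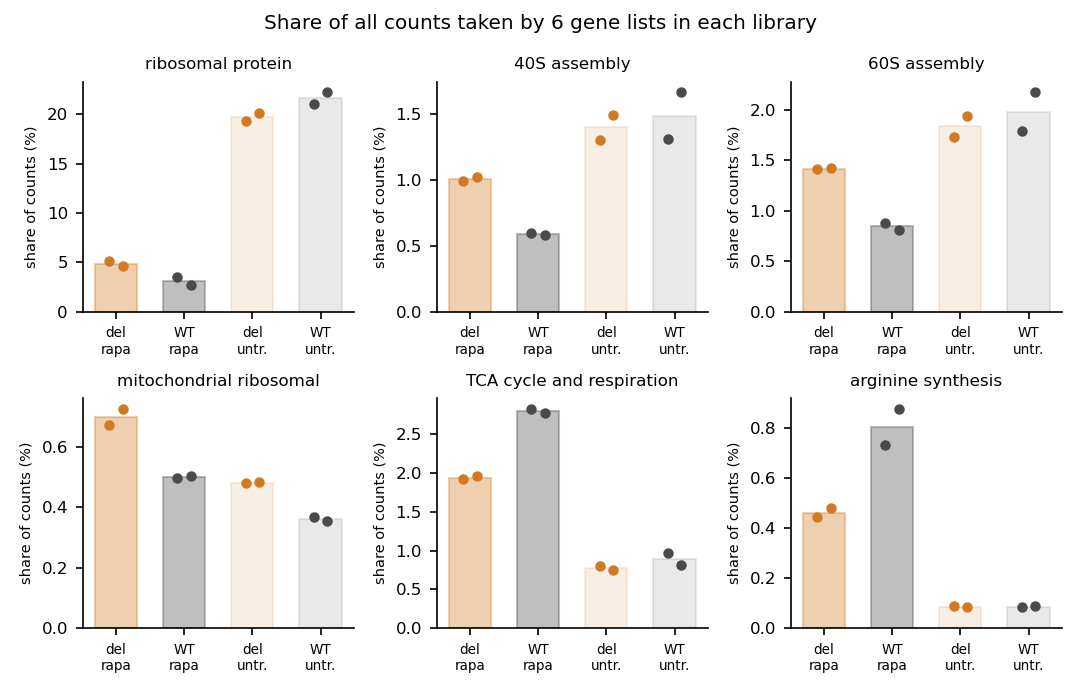
Share of all counts (y axis, percent) taken by 6 gene lists. Points are libraries and bars are the mean of 2, with deletion in orange, wild type in grey and untreated groups in paler shades. With rapamycin the ribosomal protein genes took 5.11% and 4.59% in the deletion and 3.50% and 2.75% in the wild type, while TCA cycle and respiration genes took 1.92% and 1.96% in the deletion and 2.82% and 2.76% in the wild type.

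Amino acid synthesis genes were lower in the deletion. Of 13 genes of arginine and ornithine synthesis 9 were lower and 0 higher, with a median of -0.75, and the count stayed between 6 and 9 without any 1 library. Their share of counts was 0.443% and 0.480% in the deletion and 0.733% and 0.875% in the wild type. ARG4, argininosuccinate lyase, had 1016 and 1012 CPM in the deletion against 1971 and 2353 CPM in the wild type (-1.09 ± 0.12, edgeR adjusted p = 0.00133). ARG1, the enzyme one step before it (named after its values were seen), was lower by -1.15 ± 0.15 on the log2 scale, ARG8 by -0.96 ± 0.12, and ORT1, the mitochondrial ornithine transporter, by -0.97 ± 0.09.

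Lysine, histidine, aromatic, serine and other synthesis genes were lower in 24 of 48 cases and higher in 0, with a median of -0.40 (12 without either deletion library, 15 without wild type replicate 2). LYS1, the last enzyme of lysine synthesis, had 215 and 223 CPM in the deletion and 445 and 527 CPM in the wild type (-1.15 ± 0.11). HOM2, on the shared path to threonine and methionine, was lower by -0.91 ± 0.11. In the sulfate and methionine list 12 of 34 were lower (35.3%, beside 13.5% of all genes) and 3 higher (8.82%, beside 14.4%). MET14 and MET3, the first enzymes of sulfate assimilation, had -1.36 ± 0.13 and -1.16 ± 0.11. The counts of 12 and 3 each fell without deletion replicate 1 and without wild type replicate 2. PCL5, the cyclin that marks the amino acid regulator Gcn4 for destruction, had 319 and 329 CPM in the deletion and 704 and 674 CPM in the wild type (-1.09 ± 0.09). It was named after its values were seen. HIS3, an auxotrophic marker of BY4741, had 188 and 177 CPM in the deletion and 365 and 380 CPM in the wild type (-1.03 ± 0.08). The other markers, LEU2, MET17 and URA3, had at most 1 read in any RNA library and were not tested.

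Breakdown of aromatic amino acids followed the same direction. ARO9, the transaminase of that route, had 47.5 and 45.6 CPM in the deletion against 138 and 165 CPM in the wild type (-1.70 ± 0.17). ARO10, the decarboxylase that follows it, was lower by -1.58 ± 0.21, and the alcohol dehydrogenase gene ADH5 by -1.56 ± 0.16. ARO80, the activator of ARO9 and ARO10, was lower by -0.49 ± 0.08, and its call was lost without deletion replicate 1 (adjusted p = 0.0519). These 4 were the called members among 7. SNZ1 and SNO1, neighbours that make vitamin B6, were also lower. SNZ1 had 266 and 317 CPM in the deletion and 1139 and 1492 CPM in the wild type (-2.17 ± 0.16), and SNO1 was lower by -1.29 ± 0.17.

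Nitrogen catabolite repression genes, the classical set that TORC1 inhibition turns on, split into both directions. Of 41 genes 8 were higher (19.5%, beside 14.4% of all genes) and 12 lower (29.3%, beside 13.5%), with a median of -0.10. The route for using GABA as a nitrogen source was lower at each step: the permease UGA4 had 367 and 366 CPM in the deletion and 845 and 968 CPM in the wild type (-1.31 ± 0.11), the transaminase UGA1 1678 and 1571 CPM in the deletion and 3531 and 4083 CPM in the wild type (-1.23 ± 0.17), and the dehydrogenase UGA2 1853 and 1711 CPM in the deletion and 3429 and 3857 CPM in the wild type (-1.03 ± 0.18). The proline permease PUT4 was lower by -1.49 ± 0.23. In the other direction DUR12, the urea amidolyase gene (YBR208C), had 504.2 and 448 CPM in the deletion and 224 and 247 CPM in the wild type (1.02 ± 0.11), and ATO3, a reported ammonium exporter, was higher by 1.16 ± 0.10. All 6 kept their call without any 1 library, but the counts did not: the 8 became 4, 5 and 4 without deletion replicate 1, deletion replicate 2 and wild type replicate 1, and the 12 became 5 without deletion replicate 1, deletion replicate 2 or wild type replicate 2. TAT1, a permease for tyrosine and valine, was higher by 1.56 ± 0.27.

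Several carbon source genes had large changes in either direction. HXT4, a glucose transporter, had 424 and 774 CPM in the deletion and 103 and 124 CPM in the wild type, 5.26-fold more in the deletion (log2 fold change 2.40 ± 0.34, edgeR adjusted p = 0.00252). HXT1, the low-affinity transporter, had 96.8 and 111 CPM in the deletion and 36.2 and 41.0 CPM in the wild type (1.43 ± 0.19), and HXT2 was higher by 1.17 ± 0.18. HXT6 was higher by 1.76 ± 0.40, but its reads cannot be told from those of its near-identical copy HXT7 where they were shared, and its call was lost without deletion replicate 1, deletion replicate 2 or wild type replicate 2 (adjusted p = 0.0848, 0.0522 and 0.0966). In all 6 of 21 hexose transporter and glucose sensor genes were higher and 0 lower (3 higher without any 1 of those 3 libraries). The 6 higher genes were 28.6% of the 21, beside 14.4% of all genes. ALD2, a cytosolic aldehyde dehydrogenase, had 531 and 483 CPM in the deletion against 2740 and 2778 CPM in the wild type, 5.44-fold less in the deletion (-2.44 ± 0.18, edgeR adjusted p = 0.000584). JEN1, the lactate and pyruvate transporter, had 83.9 and 86.3 CPM in the deletion and 404 and 389 CPM in the wild type (-2.22 ± 0.25). ALD6, the main cytosolic acetaldehyde dehydrogenase, had 282 and 254 CPM in the deletion and 109 and 93.7 CPM in the wild type (1.40 ± 0.21), which was higher, as did GND2 of the pentose phosphate pathway (1.56 ± 0.17). YGP1, a secreted glycoprotein gene induced as nutrients run out, had 1713 and 1280 CPM in the deletion and 549 and 335 CPM in the wild type (1.76 ± 0.30).

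Some genes of the G1/S transition were lower, and a few genes of daughter cell separation were higher. Of 22 cyclin and G1/S genes 6 were lower and 1 higher, with a median of -0.13 (3 lower without deletion replicate 1 or wild type replicate 2, and 2 higher without any 1 untreated library). The shares in this list were 27.3% lower and 4.55% higher, beside 13.5% and 14.4% of all genes. CLN1, a G1 cyclin, had 51.1 and 67.1 CPM in the deletion and 206 and 251 CPM in the wild type (-1.95 ± 0.19, edgeR adjusted p = 0.000914). CLN2, its partner, was lower by -0.87 ± 0.10, and TOS8, another target of the G1/S activator SBF, by -1.60 ± 0.12. PCL1, a G1 cyclin of the kinase Pho85, was lower by -2.06 ± 0.38, with its call lost without deletion replicate 1 (adjusted p = 0.0602). SIC1, the inhibitor that holds back S phase, had 224 and 190.1 CPM in the deletion and 108 and 106 CPM in the wild type (0.95 ± 0.10). Among genes of daughter cell separation, EGT2 had 754 and 635 CPM in the deletion and 282 and 295 CPM in the wild type (1.27 ± 0.13), the chitinase CTS1, named after its values were seen, was higher by 1.23 ± 0.16 and DSE1 by 0.94 ± 0.11. The share of cells at each stage was not measured in these samples.

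Cell wall genes were divided, with 11 of 47 higher and 13 lower (6 higher without deletion replicate 1; 4, 7 and 7 lower without deletion replicate 1, deletion replicate 2 and wild type replicate 2). The cell wall shares were 23.4% higher and 27.7% lower, beside 14.4% and 13.5% of all genes. PIR1, a wall protein, was higher by 1.39 ± 0.14, and CRH1, a chitin transglycosylase, had 622 and 691 CPM in the deletion and 1295 and 1336 CPM in the wild type, and was lower (edgeR adjusted p = 0.00111). The 8 core histone genes, the variant HTZ1 and the linker histone gene HHO1 had negative log2 fold changes in 10 of 10 cases, of which HHF2 (-0.97 ± 0.18), HTA2 (-0.62 ± 0.15) and HTB2 (-0.57 ± 0.16) passed the test. Each of these 3 lost its call without deletion replicate 1 (adjusted p = 0.0607, 0.167 and 0.212), HTA2 and HTB2 also without deletion replicate 2 (0.0614 and 0.0855) and wild type replicate 1 (0.134 and 0.174), and HTB2 also without wild type replicate 2 (0.062).

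Proteasome subunit genes were lower in 13 of 33 cases (39.4%, beside 13.5% of all genes) and higher in 0, with a median of -0.29. PRE6, a subunit of the core ring, had 178 and 192 CPM in the deletion and 356 and 365 CPM in the wild type (-0.96 ± 0.09). PRE4 was lower by -0.52 ± 0.10, with its call lost without deletion replicate 1 (adjusted p = 0.0842). The count depended on every rapamycin library: it was 1, 3, 3 and 5 without deletion replicate 1, deletion replicate 2, wild type replicate 1 and wild type replicate 2. Of 32 cytosolic and mitochondrial chaperone genes 8 were lower (25.0%, beside 13.5% of all genes) and 3 higher (9.38%, beside 14.4%). Their median was -0.31. Among the Hsp70 chaperones, SSB1, which binds nascent chains at the ribosome, was higher by 0.85 ± 0.12 (with reads possibly shared with its close copy SSB2). SSA3, a stress-induced Hsp70, was lower by -0.99 ± 0.11. The 60 general stress response genes had a median of -0.04, with 2 higher, 3 lower and 55 not called. The 4 rapamycin libraries alone gave 11 of these stress genes higher and 7 lower.

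Reported targets of repression by Rph1 were not called under rapamycin by edgeR (0 of 6 higher and 0 of 6 lower, with 2 higher at an unadjusted p under 0.05, beside 1282 of all 6169 genes, which is 20.8%). Their log2 fold changes and 95% intervals were 0.69 (0.12 to 1.26) for ATG14, 0.38 (0.09 to 0.67) for ATG7, 0.10 (-0.13 to 0.34) for ATG9, -0.06 (-0.57 to 0.46) for PHR1, -0.16 (-0.57 to 0.25) for ATG29 and -0.37 (-0.98 to 0.23) for ATG8. In untreated cells 0 of the 6 were called, and their median was 0.17. There 3 were positive and 0 negative at an unadjusted edgeR p under 0.05, beside 775 positive and 722 negative among all 6169 genes. With rapamycin ATG14, whose product belongs to the lipid kinase complex of autophagy, had 32.2 and 29.5 CPM in the deletion and 20.9 and 17.2 CPM in the wild type. ATG7, the activating enzyme of the conjugation step, had 40.2 and 49.3 CPM in the deletion and 32.6 and 36.3 CPM in the wild type. Both deletion libraries were above both wild type libraries for ATG14 and ATG7. Such a lack of overlap, in either direction, was found for 4234 of all 6169 genes. DESeq2 called ATG14 and ATG7 (adjusted p = 0.0215 and 0.0328). The 4 rapamycin libraries alone gave edgeR calls for ATG14 (higher, 0.00717) and ATG8 (lower, 0.0255). Without either untreated wild type library edgeR called ATG14 (0.0342 and 0.0341) and ATG7 (0.0495 and 0.0497) higher and ATG8 (0.0427 and 0.0422) lower, and without either untreated deletion library it called ATG14 higher (0.0449 and 0.0442). ATG8, the ubiquitin-like protein of the autophagosome, had 116 and 109 CPM in the deletion and 155 and 137 CPM in the wild type. ATG1, the kinase that starts autophagy, was lower by -0.75 ± 0.12 (edgeR adjusted p = 0.0038), with 41.5 and 52.2 CPM in the deletion and 74.9 and 83.2 CPM in the wild type. Of 40 autophagy genes in all, 2 were higher and 5 lower, with a median of 0.02. These shares, 5.0% and 12.5%, were below the 14.4% and 13.5% of all genes. The 5 became 1 without either deletion library and 2 without either wild type library with rapamycin. The 2 became 0 without any 1 of those 4 libraries, 5 without either untreated wild type library, and 5 by DESeq2.

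The direction of change differed between the FLAG-Rph1 gene lists. The authors' deposited tables list 705 genes with a fold enrichment for rapamycin and 466 for untreated cells, of which 643 and 425 were tested here. Whether the enrichment rests on pooled replicates is not stated. Of the 167 tested genes on the untreated list alone, 90 were higher in the deletion (53.9%) and 2 lower, with a median log2 fold change of 0.53. Of the 385 on the rapamycin list alone, 150 were lower (39.0%) and 13 higher, with a median of -0.33. The 258 on both lists had a median of 0.29, and the 5359 on neither had 707 higher (13.2%) and 653 lower (12.2%) with a median of 0.00. The 90 fell to 33 without deletion replicate 1 and 46 without wild type replicate 2, and the 150 to 75, 91 and 99 without deletion replicate 1, deletion replicate 2 and wild type replicate 2.

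Ribosomal protein genes made up part of these lists, with 136 of 138 on the untreated and 70 on the rapamycin list. Without them, 48 of 101 genes on the untreated list alone were higher and 2 lower (30 higher without deletion replicate 1). Genes at or above the median enrichment of the rapamycin list, 25.3-fold in the authors' deposited table, had a median log2 fold change of -0.24, with 29.7% lower. The whole rapamycin list had a median of -0.16, with 27.8% lower. Without ribosomal protein genes that list had -0.23, with 31.2% lower. RPH1 itself is on the rapamycin list. Genes on it that were lower include, per the authors' deposited table, UGA1 (444-fold), ARG4 (262-fold), ALD2 (76.7-fold) and PCL1 (95.9-fold). Genes on it that were higher include, per the authors' deposited table, LSR1 (264-fold), DBP2 (118-fold), SNR37 (102-fold) and HXT2 (62.1-fold), all 4 also on the untreated list, and of the 6 reported repression targets 0 are on either list. Listed genes had more counts than others: the median was 268 CPM in the deletion and 344 CPM in the wild type on the rapamycin list alone, 196 CPM in the deletion and 130 CPM in the wild type on the untreated list alone, and 58.1 CPM in the deletion and 56.4 CPM in the wild type on neither. In the deposited gene lists of the authors, 175 of the 705 entries with rapamycin and 164 of the 466 untreated ones share their enrichment value with another entry. The lists also differed in the response of the wild type to rapamycin, a comparison that shares the wild type rapamycin libraries. Its median log2 fold change was -2.56 on the untreated list alone, with 156 of 167 genes lower and 3 higher. On the rapamycin list alone it was 0.78, with 254 of 385 higher and 49 lower. The part of expression level, of shared values or of the rapamycin response in the split was not tested.

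**Figure D4:**
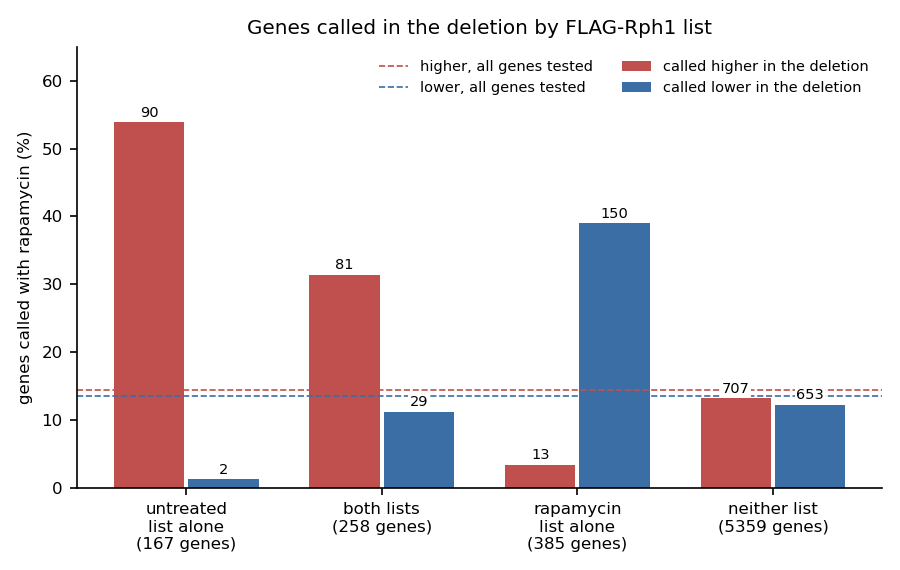
Share of tested genes called higher (red) or lower (blue) in the rph1 deletion over the wild type with rapamycin (y axis, percent), by membership in the authors' FLAG-Rph1 gene lists. Numbers over the bars are genes, and dashed lines are the shares among all 6169 genes tested, 14.4% and 13.5%. On the untreated list alone 90 of 167 were higher, and on the rapamycin list alone 150 of 385 were lower.

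For many genes the deletion effect differed between rapamycin and untreated cells by the test of the difference itself. In untreated cells 301 genes were higher in the deletion (4.88%) and 156 lower (2.53%). The deletion effect with rapamycin minus that in untreated cells was called positive for 434 genes (7.04%) and negative for 375 (6.08%), and 651 of the 1725 genes called with rapamycin were among these. Of the genes called with rapamycin, 99 were higher in both conditions, which is 11.1% of the rapamycin and 32.9% of the untreated calls, and 91 were lower in both (10.9% and 58.3%). The interaction counts moved with single libraries: they were 45 and 51 without deletion replicate 1 with rapamycin, 152 and 125 without deletion replicate 2, and 166 and 159 without wild type replicate 2. Leaving out wild type replicate 1 with rapamycin left 226 called negative. Without the first or the second untreated deletion library they were 116 and 130 or 196 and 161, and without the second untreated wild type library 272 and 242.

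The ribosomal lists had 0 members called in untreated cells by edgeR, where the medians were -0.20 for ribosomal proteins, -0.16 for 40S assembly and -0.17 for 60S assembly. At an unadjusted p under 0.05 there were 0 positive and 14 negative for ribosomal proteins, 0 and 11 for 40S assembly, and 0 and 14 for 60S assembly, beside 722 negative among all 6169 genes, which is 11.7%. The respiratory list as a whole was lower in both conditions, with 27 of 54 lower and 4 higher untreated and a median of -0.46 there. Its TCA cycle and succinate dehydrogenase genes were not lower untreated, with 0 of 15 lower, 4 higher and a median of 0.06. ATP synthase had medians of -1.19 with rapamycin and -0.54 untreated, and ATP3 differed between the conditions by -0.74 on the log2 scale (interaction, edgeR adjusted p = 0.015). Mitochondrial ribosomal protein genes were higher in both, with 24 of 72 higher untreated. Arginine synthesis had a median of 0.02 untreated, and 9 of its 13 genes were called negative for the difference. Antioxidant and thiol redox genes had 13 of 36 higher in the untreated deletion and a median there of 0.33, against -0.16 with rapamycin, and 15 were called negative for the difference. Autophagy genes had 13 of 40 higher untreated and a median of 0.34 there. Vacuolar protease genes had 5 of 12 and 0.67, and general stress genes 10 of 60 and 0.39. Of all genes 4.88% were higher untreated. In these 3 lists 9, 3 and 10 genes were called negative for the difference, and 0, 0 and 1 positive. General stress genes took 0.881% and 0.649% of counts in the untreated deletion and 0.744% and 0.366% in the untreated wild type. Those 2 groups overlapped.

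**Figure D5:**
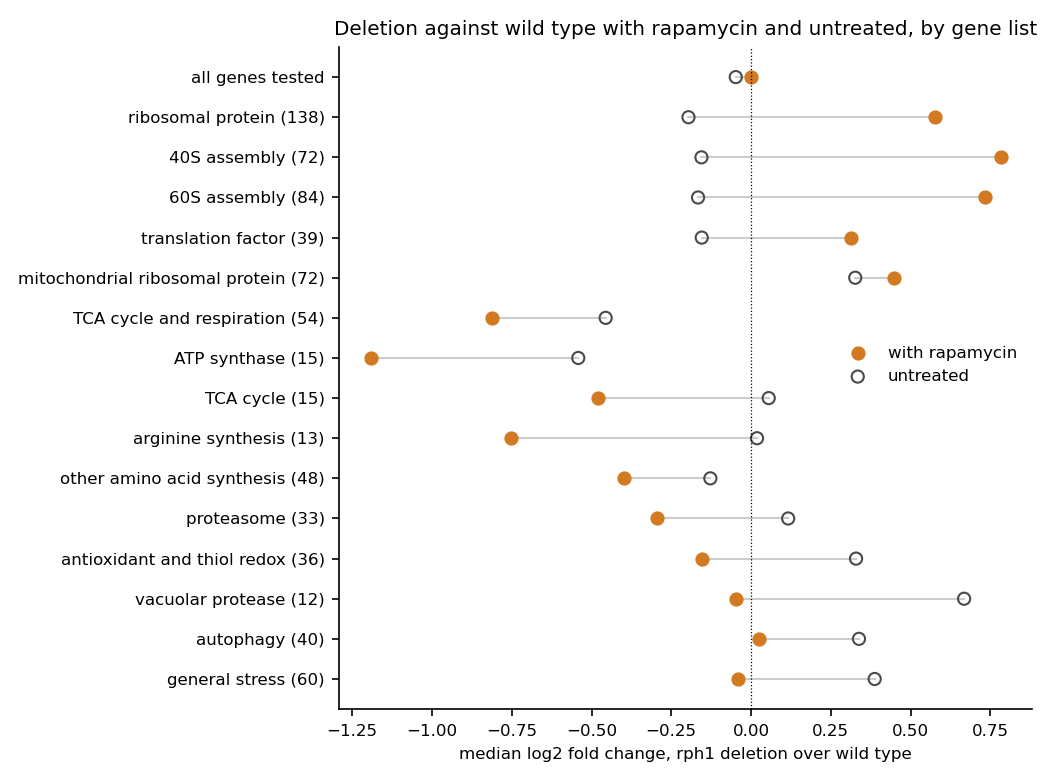
Median log2 fold change of the rph1 deletion over the wild type (x axis) with rapamycin (filled orange) and untreated (open grey) for all tested genes and 15 gene lists, with the number of genes tested in brackets. Ribosomal protein genes have a median of 0.58 with rapamycin and -0.20 untreated. The median of the TCA cycle and respiration list is below 0 in both, while that of the TCA cycle genes alone is 0.06 untreated.

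Some genes changed sides. Lower in the deletion with rapamycin but higher untreated were 26 genes, and the reverse held for 8. UGA2 was lower by -1.03 ± 0.18 with rapamycin, yet untreated it had 131 and 96.6 CPM in the deletion and 44.5 and 35.8 CPM in the wild type, a log2 fold change of 1.50. HXT2 was higher with rapamycin and lower untreated (-1.02), with 411 and 406 CPM in the untreated deletion and 951 and 704 CPM in the untreated wild type. GPP2, a glycerol phosphatase, did not pass the test with rapamycin. It had 372 and 378 CPM in the deletion and 467 and 516 CPM in the wild type with rapamycin (-0.39, edgeR adjusted p = 0.146), whereas untreated it had 166 and 166 CPM in the deletion and 53.2 and 33.8 CPM in the wild type (1.93). The rapamycin value was called lower by edgeR without either untreated wild type library (0.0164 and 0.0167) and with the 4 rapamycin libraries alone (0.0287). IMD2 and COS12 were lower in both conditions. IMD2, which encodes IMP dehydrogenase of GTP synthesis, had 49.0 and 39.4 CPM in the deletion and 177 and 159 CPM in the wild type with rapamycin (-1.93), and was also lower untreated (-2.24, interaction 0.32, edgeR adjusted p = 0.31). COS12, at the left end of chromosome VII (2790 to 3932), had 4.29 and 3.86 CPM in the deletion and 27.9 and 28.4 CPM in the wild type (-2.79 ± 0.17) with rapamycin, and 3.49 and 2.36 CPM in the deletion and 27.5 and 26.6 CPM in the wild type untreated (-3.20). IMD2 and COS12 belong to families of similar genes, so shared reads are uncertain.

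The response to rapamycin within each strain gave the same lists another scale. Its comparison in the wild type shares the wild type rapamycin libraries with the comparison above, and that in the deletion shares the deletion ones, so the values only stand side by side. The median log2 fold change of rapamycin over untreated was -2.30 in the deletion and -3.04 in the wild type for ribosomal proteins. It was -0.73 in the deletion and -1.75 in the wild type for 40S assembly, and -0.70 in the deletion and -1.65 in the wild type for 60S assembly. No test was run on these medians, and the interaction tested single genes. It was called positive for 52 of 138 ribosomal protein genes, 53 of 72 genes of 40S assembly and 64 of 84 of 60S assembly. Negative calls were 0, 0 and 1. For respiration the median response was 0.93 in the deletion and 1.38 in the wild type. For arginine synthesis it was 1.30 in the deletion and 2.12 in the wild type. Mitochondrial ribosomal proteins had 0.21 in the deletion and 0.14 in the wild type.

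Lower calls were common near chromosome ends. The median log2 fold change per chromosome ran from -0.05 to 0.10. Among 214 tested genes within 20 kb of a chromosome's first base or of its last annotated gene end, 53 were lower (24.8%) and 12 higher, with a median of -0.22. Elsewhere 758 of 5546 were lower (13.7%) and 841 higher. In untreated cells 17 of the genes near ends were higher and 5 lower. The count of 53 was 19, 27, 31 and 24 without deletion replicate 1, deletion replicate 2, wild type replicate 1 and wild type replicate 2, and the 12 became 6, 5 and 5 without deletion replicate 1, deletion replicate 2 and wild type replicate 1.

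Phosphate genes included acid phosphatases that were higher. PHO3, a thiamine-repressed acid phosphatase, had 90.0 and 81.9 CPM in the deletion and 33.5 and 33.7 CPM in the wild type (1.36 ± 0.18). The phosphate regulon list used here counts PHO3 among its higher members, although it is named for its control by thiamine. Of that list 29.2% were higher, beside 14.4% of all genes. Of 24 phosphate regulon genes 7 were higher and 0 lower (2, 2 and 3 higher without deletion replicate 2, wild type replicate 1 and wild type replicate 2). PHO12 was higher by 1.45 ± 0.31, with reads that may be shared with its near-identical copy PHO11, and its call was lost without deletion replicate 2 or wild type replicate 1 (adjusted p = 0.0572 and 0.0667).

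Mating-type genes served as a check of the strain. STE3, the receptor that MATα cells use, was low but present in the deletion, with 13.9 and 14.6 CPM against 4.23 and 3.67 CPM in the wild type (1.85 ± 0.14), and it was higher untreated as well (2.23). Of the 3 alpha-specific genes tested 2 were higher (1 without deletion replicate 1, deletion replicate 2 or wild type replicate 1), and the alpha-factor gene MF(ALPHA)1 had too few reads to be tested. Of all genes 14.4% were higher, but 3 genes are too few to set against that share. The 7 a-specific genes, which mark the MATa type, had a median level of 278 CPM in the deletion and 275 CPM in the wild type. Of them ASG7 (0.71 ± 0.12) and AGA2 (0.47 ± 0.09) were higher, and AGA2 lost its call without deletion replicate 1 (adjusted p = 0.0546). The other 5 did not pass the test: STE2 had 0.00 (95% interval -0.63 to 0.63), STE6 0.30 (-0.28 to 0.88), BAR1 0.39 (-0.05 to 0.83), MFA1 -0.10 (-0.42 to 0.22) and MFA2 -0.13 (-0.46 to 0.20).

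Other lists had medians nearer to that of all genes. Glycolysis and fermentation genes had a median of 0.04 with 29 of 30 not called (4 higher and 2 lower with the 4 rapamycin libraries alone). TORC1 and upstream signalling genes had a median of -0.04, amino acid permeases 0.04, nucleotide synthesis 0.09, ergosterol synthesis 0.02 and branched-chain amino acid synthesis -0.17. Iron, copper and zinc genes had a median of 0.20, as had trehalose and glycogen genes. Nonfermentable carbon genes had a median of -0.26, with 9 of 30 lower and 2 higher (4 and 1 without deletion replicate 1). The nonfermentable carbon shares were 30.0% lower and 6.67% higher, beside 13.5% and 14.4% of all genes. CIN5, a transcription factor of the Yap family, was lower (-2.03 ± 0.26).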

How the data were processed

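The deposited RNA-seq values are raw counts per annotated gene, in 7036 entries. The submitters' processing notes name Trimmomatic 0.38, STAR 2.5.3a and featureCounts 1.6.3 and the build sacCer3. Roles, annotation and use of strand are not stated, so overlapping or antisense genes cannot be told apart. The authors' deposited FLAG-Rph1 tables give a fold enrichment ratio per gene against a control that is not stated.

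Counts were fitted with edgeR 4.0.16 in R 4.3.3: filterByExpr at a minimum count of 10, TMM scaling, 1 quasi-likelihood model over all 8 RNA libraries with a mean per group, Benjamini-Hochberg adjustment over all 6169 genes, called under 0.05. All 4 groups share 1 estimate of the spread. The SE comes from the F statistic. Symbols and positions came from the R64 gene table, which matched 5956 entries. DESeq2 1.42.0 was an alternative. The scripts were tested on simulated data.

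The members, gene lists and rules were chosen with earlier results of these data known, 6 lists were written after these values were seen, and 5 genes that are not what a list's name says (RPP1, GCD10, GCD14, MRP8 and RPN4) were then taken out of 4 lists. The genes named are, by rule, RPH1 and its neighbours, the 15 largest changes each way at a mean of at least 10 CPM, up to 4 members of a list by smallest p, all members of lists of up to 8 genes, and the 6 largest interaction differences each way. Not all are printed, and REH1, RSM22, PCL5, CTS1 and ARG1 were added after their values were seen. Promoter letters were not analysed here.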

Additional observations from a re-analysis of the deposited data

Results flagged for a closer look

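The deletion effect differed between rapamycin and untreated cells for 69 of the named genes, by the interaction term of the edgeR fit (adjusted p up to 0.0492). Many were named because they changed with rapamycin or by this difference, so their number is no sample of all genes. Each value is the log2 fold change of the deletion over the wild type with rapamycin minus that in untreated cells, over 2 libraries per group.

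Positive differences, a more positive deletion effect with rapamycin, were found in the ribosomal and translation genes RPL3 1.23, RPP0 1.04, RPS9A 0.99, ASC1 1.18, UTP23 1.29, ROK1 1.42, NOP14 1.30, ERB1 1.30, SDA1 1.29, RRP8 1.37, DBP2 1.79, RPA49 1.19, RPA135 1.13, RPC53 0.84, PRT1 0.87, RPG1 1.245, GLN4 0.93, SSB1 1.15 and NAM9 0.49. The small RNAs gave SNR37 2.08, LSR1 1.56 and SNR30 1.84, at low counts. Nutrient transport and metabolism gave ALD6 1.29, ATO3 1.37, DUR12 1.50, TAT1 1.51, HXT2 2.19, HXT6 2.65 and PHO3 1.65, and cell cycle and wall genes gave SIC1 1.07, EGT2 1.39, CTS1 0.83, DSE1 1.18 and PIR1 1.46.

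Negative differences were found in the respiratory genes COX6 -0.83, ATP3 -0.74 and ATP17 -0.67 and in REH1 -0.71 and RSM22 -0.93 of ribosome assembly. Amino acid and vitamin synthesis gave ARG1 -1.28, ARG4 -0.63, ARG8 -1.002, ORT1 -0.96, LYS1 -1.34, HOM2 -0.86, MET3 -1.24, MET14 -1.56, HIS3 -1.10, PCL5 -1.44, SNZ1 -2.50 and SNO1 -1.14. Nitrogen and carbon genes gave UGA1 -1.86, UGA2 -2.53, UGA4 -1.55, PUT4 -1.50, ADH5 -1.58, ALD2 -2.91, JEN1 -1.64, YGP1 -1.63 and GPP2 -2.32. The remaining ones were ATG1 -1.25, PRE6 -0.94, PRE4 -0.53, SSA3 -0.91, CLN1 -1.13, CLN2 -0.96, TOS8 -1.42, CRH1 -0.80 and AGA2 -0.57. For YGP1 both effects were positive, 1.76 with rapamycin and 3.39 untreated, and for AGA2 they were 0.47 and 1.04.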

How the results depend on the processing

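Of 93 named genes called with rapamycin, 79 kept direction and call in all 16 settings and 14 lost the call without 1 library. No called gene reversed, and 7 of 19 uncalled ones were called in some setting. Over 64 gene lists the median log2 fold change was compared with the main result 1024 times. It stayed within the spread set as the limit in 918 cases and moved beyond it in 105. It reversed in 1, for the JmjC genes with SET2, which had -0.0822 to 0.0535 over the libraries left out.

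The 2 replicates share numbers across groups, but nothing says that a number marks a shared culture, and the replicates' deviations correlated by 0.26 between deletion and wild type with rapamycin and by 0.19 to 0.56 over the 6 pairs of groups. With a replicate block 1275 genes were higher and 1268 lower with rapamycin, and 878 were higher and 770 lower for the interaction, and ATG14 (adjusted p = 0.00534), ATG7 (0.0324) and JHD2 (0.0262) were called higher with rapamycin. DESeq2 gave 1068 and 823, its size factors in edgeR 981 and 749, TMM without ribosomal genes 989 and 747 (57.0% of calls higher, against 51.7% in the main result), and the 4 rapamycin libraries alone 1047 and 969.

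Leaving out 1 of the 8 libraries gave 373 to 1020 higher and 274 to 974 lower with rapamycin, and 45 to 525 higher and 51 to 495 lower for the interaction. The same ranges were 10 to 109 for ribosomal protein genes higher, 30 to 51 for mitochondrial ribosomal protein genes higher, 12 to 25 for other amino acid synthesis and 1 to 16 for proteasome genes lower. They were 33 to 95 for the untreated FLAG-Rph1 list alone (higher), 75 to 165 for the rapamycin list alone (lower) and 19 to 56 for genes near chromosome ends (lower). Where a group keeps 1 library, it is assumed to vary like the others.

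Uncalled genes changed sign when 1 library was left out: GIS1 ran from -0.42 to 0.0930, SET2 from -0.16 to 0.14 (0.09 without deletion replicate 1), PHR1 from -0.15 to 0.11, MFA1 from -0.26 to 0.0937 (0.05 without wild type replicate 1) and STE2 from -0.15 to 0.23 (-0.05 without deletion replicate 2), with -0.0023 for STE2 at a count minimum of 50. The causes were not tested. The planned search of promoter letters was not run. With 2 libraries per group small changes could not be detected, least of all in RNAs with few reads.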
